A study of Rattus norvegicus with 14 samples.

Results

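Regions on unplaced sequence were examined in hippocampal DNA of 14 male Wistar rats by sequencing of captured methylated fragments (Methyl-Seq). The deposited table holds tag counts for 310070 regions of the rat genome RN4, and a region was a member when its chromosome name was chrUn. This gave 8697 members (2.80% of all regions). They were compared with 294637 regions placed on autosomes, and 6735 regions on chromosome X served as a further reference. Among these regions, membership used only position and no tag count. The regions themselves, on chrUn and elsewhere, had been called by the authors from tag differences between pairs of samples. How that selection bears on the comparisons below was not tested.

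The 3 groups were CTRL (n = 5), PILO (n = 4) and PILO+KD (n = 5). All animals received methyl scopolamine (1 mg/kg), which limits the effects of muscarinic agonists outside the brain. CTRL rats then received saline and were kept on standard diet. PILO rats received the muscarinic agonist pilocarpine (340 mg/kg) to induce status epilepticus, with a second dose of 175 mg/kg in animals without status epilepticus, followed by diazepam (8 mg/kg), and ate standard diet. PILO+KD rats had the same injections and were fed a ketogenic diet, rich in fat and poor in carbohydrate. Dorsal hippocampus was taken after an observation period of 84 days, and 500 ng of DNA per animal gave 1 library, without pooling of animals. The labels do not say which rats needed the second dose or how old they were beyond being matched in age. Hippocampus is a mixture of cell types, so that altered methylation within cells and an altered mixture of cells cannot be told apart. Annotation of RN4 was not analysed, so the labelled tissue was not checked against methylation at marker genes.

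Methyl-CpG binding protein captures DNA fragments that carry methylated CpG sites, so that regions yield more tags the more methylated DNA they hold. Unplaced sequence is the part of a genome assembly that could not be assigned to a chromosome. Such sequence is commonly rich in satellite and other repeated DNA, which is heavily methylated in most mammalian tissues and hard to place because its copies resemble each other. In the RN4 assembly these contigs were strung together under the name chrUn, so that neighbours on chrUn need not be neighbours in the animal. The sequence of the members was not analysed here, and whether a given member is a repeat is not stated below.

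Libraries held between 6972700 and 12391666 tags in regions (median 9400500). No pair of replicate libraries was alike within counting error (chi-square divided by its degrees of freedom, 1.63 to 4.87), and each library counted as 1 sample. The sample descriptions carry 4 prefixes, FC084, FC101, FC102 and FC104, and FC101 covers 8 libraries (CTRL 2 to 4, PILO 2 to 4, PILO+KD 2 and 3). PILO+KD 4 was the only library with prefix FC104, and FC084 held no PILO library.

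Members were longer and more densely covered than autosomal regions. Their length had a median of 667 bp (162 to 22352 bp) against 564 bp on autosomes, and 4.35% of members were 2 kb or longer against 0.801% of autosomal regions. Together they covered 7523447 bp, which was 3.70% of the sequence in the table but held 7.36% of all tags. They lay between positions 4869 and 75814522 of chrUn, with a median gap of 3145 bp between neighbours. Tags were scaled to library size with TMM (CPM), divided by length in kb and averaged over animals. The median was 2.57 CPM per kb for members, 1.85 for autosomal regions and 4.92 for regions on chromosome X. At the 99th centile the order was different, with 42.8 CPM per kb for members, 21.1 for autosomal regions and 25.1 for chromosome X. Of the 3101 densest regions of the table (its top 1%), 545 lay on chrUn (17.6%), and of the 311 densest 95 did (30.5%).

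In each animal the median member carried more tags per kb than the median autosomal region. The ratio was between 1.2 and 1.4 in CTRL, between 1.13 and 1.73 in PILO and between 1.19 and 1.76 in PILO+KD. It was lowest in PILO 3 and highest in PILO+KD 4, and the 3 groups overlapped. Over all animals the log2 ratio was 0.45 ± 0.21 (SD, n = 14) and above 0 in 14 of 14 animals (two-sided exact permutation test by sign changes, p = 0.000122, the smallest this design allows). All animals share the same sets of regions, so this p speaks only to variation between libraries and not to the choice of regions. With summed tags over summed length the ratio was larger, at 2.12 ± 0.178 (SD, n = 14). Among regions of like length the mean log2 ratio was 0.23 (exact p = 0.000244). That p is above the smallest possible value, so not every animal lay above 0 at like length.

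The excess lay at both ends of the length range. Members of 162 to 340 bp had a median of 1.58 CPM per kb against 1.10 on autosomes (ratio 1.44). Members of 1493 bp and more had 13.5 CPM per kb against 9.78 (ratio 1.38). Between 482 and 935 bp the ratio was between 0.900 and 1.05, and members of 568 to 666 bp were the one length class with a ratio below 1.

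**Figure D1:**
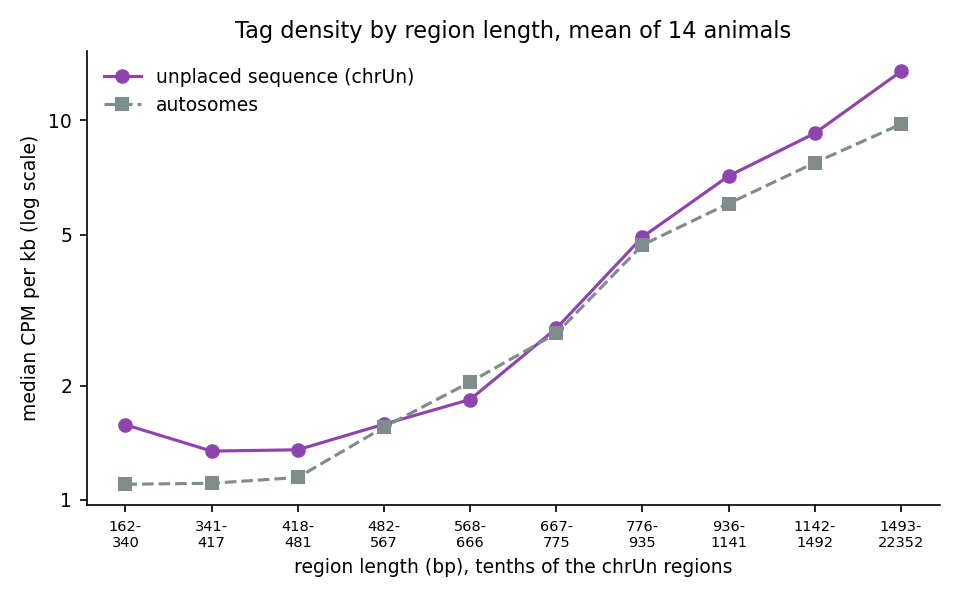
Median tag density (CPM per kb, log axis, mean of 14 animals) in 10 classes of members by length, for chrUn regions (circles) and autosomal regions of the same lengths (squares). From 482 bp on both classes rise with length, while the shortest chrUn class lies at 1.58 and the next at 1.34 CPM per kb. ChrUn lies above autosomes in the shortest and the longest classes, at 13.5 against 9.78 CPM per kb in the longest.

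Tags on chrUn were concentrated in few members. The 87 members with the most tags (1%) held 25% of all chrUn tags, against 15.8% for the same fraction of autosomal regions, and the top 10% held 64.7% against 54.2%. Members within 5 kb of each other were joined to blocks, a definition chosen after the values had been seen. This gave 3160 blocks, of which 1427 were single regions. The 5 blocks with the most tags contained 29 members and 1.57% of the covered sequence, and held 11.9% of chrUn tags. The leading block, chrUn:393895-456206, had 15 members and held 4.35% of chrUn tags. The next, chrUn:23392792-23418376, had 5 members and held 3.06%. In intervals of 1 Mb, the first of the 76 intervals held 7.83% of chrUn tags, against a median of 1.10%.

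The 5 members with the most tags per kb lay in or near these 2 blocks. The densest was chrUn:23397141-23408353 (11212 bp, 162 CPM per kb), followed by chrUn:437728-444078 (159), chrUn:23408867-23410094 (155), chrUn:426370-437409 (149) and chrUn:479592-482314 (134). The first 4 regions of the table by density were all on chrUn. With duplicate reads removed, at most 1 tag per position and strand can be counted, which is 2 tags per bp. A density above 1 tag per bp in any animal was reached by 8 members, 7 autosomal regions and 1 region of chromosome X.

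In chrUn:23397141-23408353 the tags per bp were 1.61, 1.15, 0.831, 1.42 and 0.870 in CTRL 1 to 5. The PILO animals had 1.60, 1.5, 1.5 and 1.53, and the PILO+KD animals had 1.54, 1.55, 1.41, 1.35 and 1.16, with animal 211 last. CTRL 3 and CTRL 5 were lowest and CTRL 1 was highest, so that the groups overlapped. PILO 3 and PILO 4, whose totals of 12391666 and 6972700 tags were the highest and the lowest of the study, counted 16814 and 16816 tags there. In CPM, the difference of PILO from CTRL was 0.55 ± 0.22 on the log2 scale (SE; unadjusted edgeR p of 0.0157).

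The neighbouring chrUn:23408867-23410094 (1227 bp) was the only member above 1 tag per bp in every animal. Its tags per bp were 1.41, 1.23, 1.05, 1.31 and 1.07 in CTRL, 1.4, 1.34, 1.34 and 1.39 in PILO, and 1.38, 1.39, 1.34, 1.32 and 1.25 in PILO+KD. The highest value was 1.34 times the lowest, whereas in CPM the highest was 1.89 times the lowest. As a description, its tags and the library totals had a Pearson r of -0.00072 over the 14 animals. Values near the limit set by duplicate removal restrict what can be read from differences between libraries in these members, and the part of that limit was not tested.

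The block from 393895 to 456206 showed a like order of animals. In chrUn:426370-437409, CTRL had 1.46, 1.06, 0.732, 1.33 and 0.747 tags per bp, PILO 1.48, 1.43, 1.42 and 1.4, and PILO+KD 1.41, 1.44, 1.29, 1.27 and 1.03. CTRL 3 and CTRL 5 were again lowest, and CTRL 1 reached the level of the PILO animals. None of the 5 densest members passed p below 0.01 in any comparison. Their PILO versus CTRL differences were between 0.32 and 0.59 on the log2 scale, with p between 0.0114 and 0.0746 (edgeR).

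**Figure D2:**
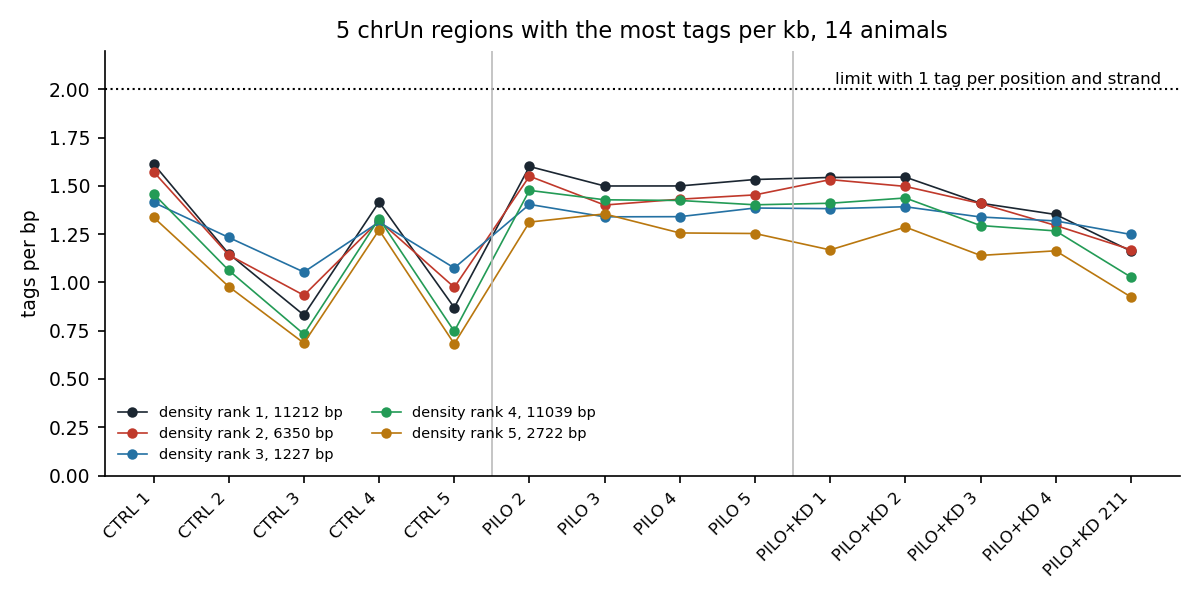
Tags per bp in the 5 chrUn regions with the most tags per kb, by animal, with vertical lines between CTRL, PILO and PILO+KD and a dotted line at 2 tags per bp. CTRL 3 and CTRL 5 are low in all 5 regions (down to 0.682), the PILO animals lie between 1.25 and 1.60, and no value reaches 2.

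Other members with many tags were less dense. In chrUn:38257913-38268485 (10572 bp) the values were between 0.407 and 0.799 tags per bp, and in chrUn:29677561-29688404 (10843 bp) between 0.393 and 0.691. CTRL 3 was the lowest animal in both. The 3 longest members were chrUn:56895008-56917360 (22352 bp), chrUn:59317524-59336637 (19113 bp) and chrUn:47881291-47898096 (16805 bp). Their densities were between 10.1 and 16.4 CPM per kb, and none of the 3 comparisons gave them a p below 0.266 (edgeR).

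Shares below are of the tags that a library held in regions, not of all its reads. The share on chrUn was 7.24, 6.49, 6.75, 7.71 and 7.38% in CTRL 1 to 5. It was 7.84, 6.80, 8.10 and 7.55% in PILO 2 to 5, and 7.64, 6.83, 6.98, 8.26 and 7.86% in PILO+KD 1, 2, 3, 4 and 211. Each group had animals below 7% and above 7.7%, and the groups overlapped. The mean was 7.11 ± 0.492% (SD, n = 5) in CTRL, 7.57 ± 0.562% (n = 4) in PILO and 7.51 ± 0.603% (n = 5) in PILO+KD. PILO was 0.459 percentage points above CTRL (two-sided exact permutation test, p = 0.222, adjusted over the 3 comparisons 0.440). PILO+KD was 0.397 points above CTRL (exact p = 0.294, adjusted 0.440). PILO+KD minus PILO was -0.0616 points (exact p = 0.937, adjusted 0.937). None of these differences exceeded the spread between animals. Without the 1% of members with the most tags, PILO minus CTRL was 0.163 points (exact p = 0.46) and PILO+KD minus CTRL 0.257 points (exact p = 0.365). Among FC101 libraries the means were 6.98% in CTRL (n = 3), 7.58% in PILO (n = 3) and 6.90% in PILO+KD (n = 2), so that PILO+KD minus CTRL was -0.0831 points there. In FC102, with 1 library per group, the shares were 7.38, 7.55 and 7.86%. In FC084 they were 7.24% in CTRL and 7.64% in PILO+KD.

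Differences between animals on chrUn were shared by many members. For each tested region the log2 CPM of an animal was set against the mean of all animals, and the median over members minus the median over autosomal regions gave a shift per animal. It was -0.04, -0.20, -0.11, 0.01 and 0.05 in CTRL 1 to 5, 0.07, -0.16, 0.06 and 0.01 in PILO 2 to 5, and 0.06, -0.17, -0.15, 0.33 and 0.14 in PILO+KD 1, 2, 3, 4 and 211. PILO+KD 4 stood highest of all animals. PILO+KD 2 and PILO+KD 3, both FC101, were among the lowest, together with CTRL 2 and PILO 3. The mean shift was -0.06 ± 0.10 in CTRL (SD, n = 5), -0.01 ± 0.11 in PILO (n = 4) and 0.04 ± 0.21 in PILO+KD (n = 5).

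**Figure D3:**
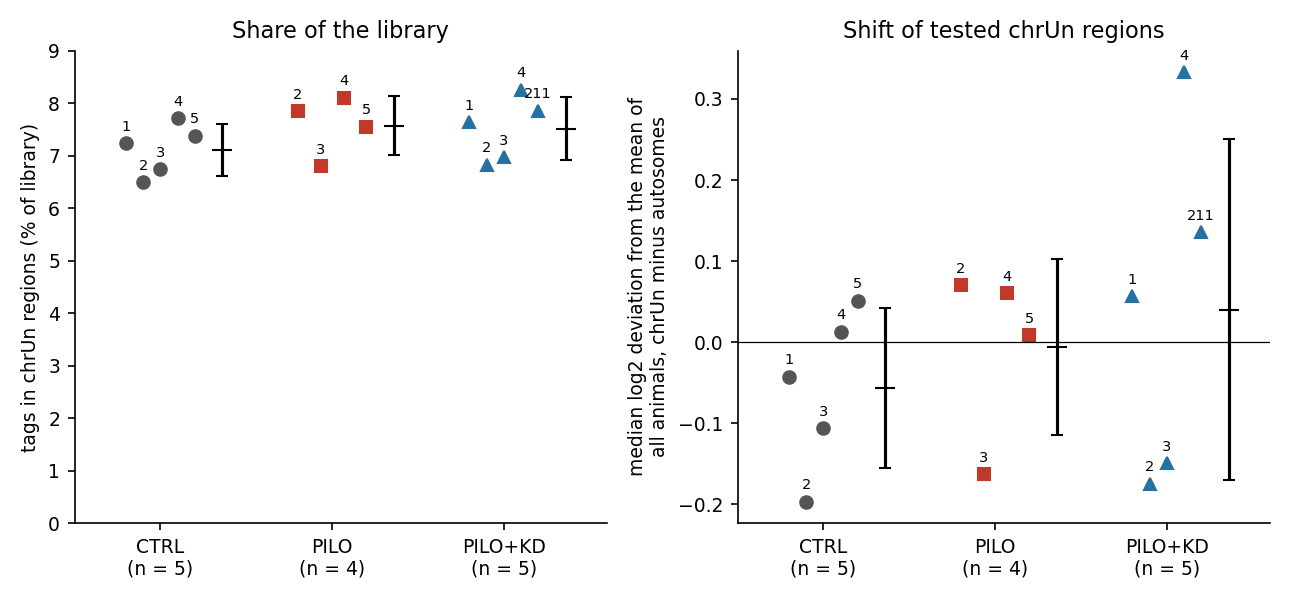
Left, tags in chrUn regions as a percentage of the tags that the library held in all regions. Right, the median log2 deviation of tested chrUn regions from the mean of all animals minus that of autosomal regions. Points are animals with their replicate numbers, bars are mean ± SD, and the groups overlap in both panels, with PILO+KD 4 highest at 8.26% and 0.33.

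Adjoining members varied together more than adjoining autosomal regions. Over neighbouring tested regions the correlation of their deviations from group means across the 14 animals had a median of 0.37 on chrUn (2713 pairs), 0.12 on autosomes (59597 pairs) and 0.39 on chromosome X (1124 pairs). The tested regions of these classes also differed in abundance, with a median log2 CPM of 2.41, 1.79 and 2.71 in the same order. The correlations were not compared at like abundance. They describe pairs that share their libraries and were not tested.

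The spread between animals of a group, set against autosomal regions of like abundance, did not pass the test over all 14 animals, while some other settings called it lower on chrUn. A deviation was taken for each animal and region as the distance of its log2 CPM from the mean of the other animals of its group, and members and autosomal regions were compared within 10 classes of abundance with equal numbers of members. The median deviation was 0.277 ± 0.0441 on the log2 scale on chrUn and 0.284 ± 0.0457 on autosomes (SD, n = 14). The log2 ratio was -0.04 ± 0.12 (two-sided exact permutation test by sign changes, p = 0.283), with chrUn more variable in 6 of 14 animals. Among FC101 libraries it was -0.10 (exact p = 0.0156) and without a filter on low counts -0.0502 (exact p = 0.0273). In PILO the ratio was between 0.816 and 0.928 in all 4 animals, in CTRL between 0.987 and 1.08, and in PILO+KD between 0.891 and 1.10. Without regard to abundance the log2 ratio was -0.16 (permutation p = 0.00061). When each class was centred on its own median in each animal, a choice made after the data had been seen, it was -0.23 (permutation p = 0.000732).

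The direction changed with abundance. In class 1 (log2 CPM 0.12 to 0.57) the median deviation was 0.402 on chrUn and 0.422 on autosomes. In class 6 (2.37 to 2.87) it was 0.243 and 0.225, with chrUn larger in 9 of 14 animals. In class 9 (4.20 to 5.08) it was 0.174 and 0.210, with chrUn larger in 2 of 14 animals.

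**Figure D4:**
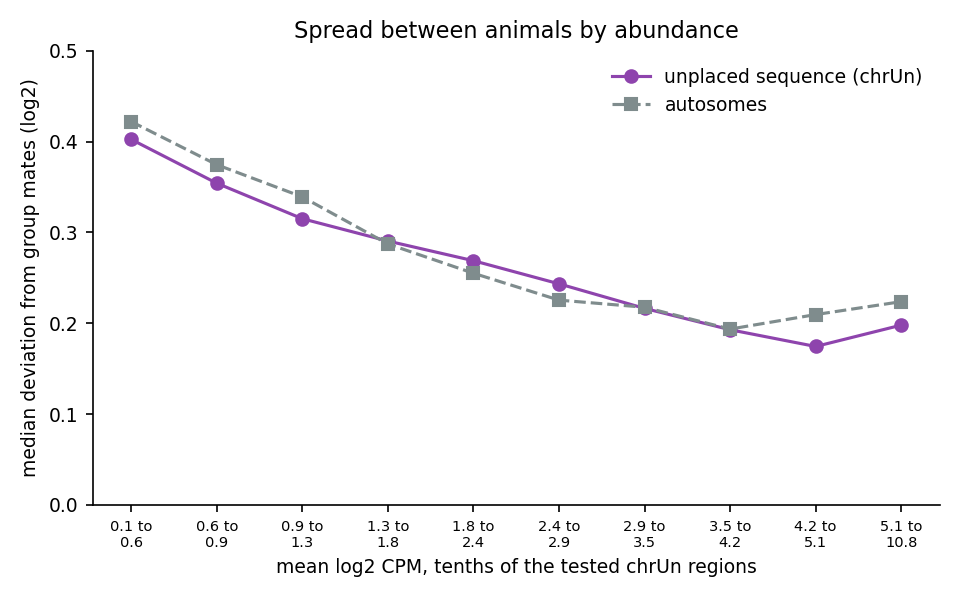
Median deviation of an animal from its group mates (log2) in 10 classes of the tested chrUn regions by mean log2 CPM, for chrUn (circles) and autosomes (squares). The lines cross, with autosomes above at both ends and chrUn above in the middle (0.243 against 0.225 in class 6).

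Some members differed widely among CTRL animals. The 5 members with the largest ratio of highest to lowest CTRL animal, computed with 2 tags added to each count, had ratios between 9.79 and 14.1. The first, chrUn:59755477-59755978, had 1.39, 1.34, 0.00, 3.04 and 0.436 CPM in CTRL. Its PILO values were 2.66, 1.15, 0.462 and 2.40 CPM, and its PILO+KD values 0.144, 0.316, 0.678, 3.21 and 0.848 CPM. CTRL 4 and PILO+KD 4 were highest and CTRL 3 had no tag. The last of these, chrUn:59721314-59722050, had 2.38, 4.03, 0.258, 4.55 and 0.436 CPM in CTRL, 3.40, 0.986, 0.308 and 3.03 in PILO, and 0.432, 2.00, 1.36, 6.30 and 1.27 in PILO+KD. Here too CTRL 4 and PILO+KD 4 were the highest of their groups. The others were chrUn:68407065-68407707, with its lowest value in CTRL 2, chrUn:2545925-2546674, with no tag in CTRL 3, and chrUn:1566704-1567437, with no tag in CTRL 4. All 5 were thinly covered, with between 155 and 305 tags over the 14 animals, and 1 tag was worth between 0.0822 and 0.154 CPM.

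Group differences were tested in regions with at least 129 tags over all animals, the 50th centile of the table. This kept 5280 members (60.7%), against 49.2% of autosomal regions, and left 3417 members untested. A region was called at an unadjusted p below 0.01 in edgeR's quasi-likelihood test, fitted to all 155092 tested regions. In that fit no member had a Benjamini-Hochberg adjusted p below 0.05 in any comparison, nor with DESeq2 or limma-voom, and edgeR's exact test gave 1 such member, in PILO+KD versus CTRL. Some edgeR fits with fewer libraries or an added term gave between 1 and 3. The counts below therefore rank members by p and do not establish single members. The comparisons against CTRL share the CTRL animals, and both comparisons with PILO share the PILO animals.

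PILO versus CTRL addressed the state 84 days after status epilepticus. Of 5280 members 38 were called (0.720%, where 1.19% of all tested regions were called), 33 higher in PILO and 5 lower. Over all tested regions 0.713% were called higher and 0.482% lower, and the corresponding shares of members were 0.625% and 0.0947%. Among called autosomal regions 59.2% were higher, against 86.8% of called members. Without PILO 3 the autosomal share was 34.8% and that of members 95.9%. At p below 0.05 there were 169 members, 136 of them higher, and the smallest adjusted p was 0.432 (edgeR). The median log2 fold change was 0.04 over members and 0.00 over autosomal regions, and 60.1% of members were above 0. Tested regions of chromosome X had a like median of 0.04, with 59.5% above 0. With 1 animal left out the median over members was between 0.02 (without CTRL 2 or PILO 4) and 0.09 (without PILO 3), with 0.03 without PILO 2, 0.07 without CTRL 4 and 0.08 without CTRL 5, and among FC101 libraries it was 0.10. In 52 members the CTRL and PILO animals did not overlap (0.985%, against 2.01% of all tested regions), 33 of them higher in PILO.

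No lengths of called autosomal regions were compared, but members called higher in PILO were longer than tested members as a whole. Their median length was 1616 bp against 926 bp for all tested members, their density had a median of 6.28 CPM per kb (1.59 to 63.1), and their log2 fold changes were between 0.47 and 1.23. They lay in 18 of the 1-Mb intervals, with at most 4 in the same interval. PILO 2 was the animal farthest above CTRL in 21 of the 33 and PILO 3 in 2. Without PILO 2, 18 members were called in all and 13 of the 33 passed, while without PILO 3 there were 73 calls. The count was 60 without CTRL 1, 23 without CTRL 2, 24 without CTRL 3 and 20 without CTRL 5. Among FC101 libraries, with 3 animals per group, 74 members were called, 67 of them higher, and 23 of the 33 passed. All 33 kept their sign in each of these settings, which reuse animals by which they were called.

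The member with the smallest p was chrUn:67200496-67204012 (3516 bp). Its CTRL values were 23.5, 20.4, 18.9, 20.4 and 14.3 CPM, its PILO values 33.6, 30.3, 30.8 and 29.5 CPM, and its PILO+KD values 29.6, 22.5, 20.7, 20.2 and 21.8 CPM. All PILO animals lay above all CTRL animals, and among PILO+KD animals PILO+KD 1 alone reached the PILO level. PILO was higher than CTRL by 0.67 ± 0.16 on the log2 scale (SE; unadjusted edgeR p of 0.00016, adjusted p of 0.432).

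In chrUn:65758306-65761550 (3244 bp) the CTRL animals were close together, with 16.1, 15.8, 16.1, 15.6 and 13.8 CPM. PILO animals had 27.2, 20.7, 23.4 and 22.7 CPM, all above CTRL, and PILO+KD animals had 25.5, 19.2, 16.8, 14.9 and 19.1 CPM, which overlapped with both. The log2 fold change of PILO was 0.60 ± 0.16 (unadjusted edgeR p of 0.000563, adjusted p of 0.589).

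In the same way chrUn:66934945-66939081 (4136 bp), had 33.0, 32.1, 25.2, 23.4 and 16.6 CPM in CTRL and 45.6, 38.9, 39.6 and 44.2 CPM in PILO. The groups did not overlap (log2 fold change 0.69 ± 0.18, unadjusted edgeR p of 0.000685, adjusted p of 0.589). In chrUn:66483808-66486008 (2200 bp) CTRL had 7.97 ± 2.10 CPM (SD, n = 5) and PILO 14.8 ± 3.71 CPM (n = 4), with 10.9 CPM in both CTRL 1 and PILO 3. Its log2 fold change was 0.88 ± 0.24 (unadjusted edgeR p of 0.000983, adjusted p of 0.631).

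A pair of adjoining members, chrUn:6563574-6566060 and chrUn:6567028-6568398, was called together. In chrUn:6567028-6568398 (1370 bp), CTRL had 11.7, 14.2, 14.2, 15.4 and 11.6 CPM, PILO 24.6, 17.6, 19.1 and 19.7 CPM, and PILO+KD 18.3, 15.0, 12.3, 11.6 and 15.2 CPM. PILO lay above CTRL without overlap (log2 fold change 0.59 ± 0.16, unadjusted edgeR p of 0.000935, adjusted p of 0.631). In chrUn:6563574-6566060 (2486 bp), CTRL had 12.0, 37.4, 26.8, 19.5 and 13.2 CPM, PILO 67.5, 33.4, 40.4 and 40.7 CPM, and PILO+KD 45.3, 26.0, 12.9, 8.73 and 27.0 CPM. CTRL varied 3.07-fold there with 2 tags added, and CTRL 2 lay above PILO 3 (log2 fold change 1.06 ± 0.31, unadjusted edgeR p of 0.00193, adjusted p of 0.692).

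Lower levels in PILO were called in 5 members. The first was chrUn:24090364-24091146 (782 bp), with 5.46, 6.60, 9.40, 5.44 and 7.63 CPM in CTRL, 4.59, 3.45, 4.78 and 4.29 CPM in PILO, and 7.62, 5.79, 6.32, 6.74 and 4.98 CPM in PILO+KD. PILO lay below both other groups without overlap (log2 fold change against CTRL -0.71 ± 0.21, unadjusted edgeR p of 0.00171, adjusted p of 0.665). The remaining 4 were chrUn:67142859-67143510, chrUn:38720654-38721542, chrUn:64591403-64592430 and chrUn:49013167-49014318. Their log2 fold changes were between -1.20 and -0.52. In chrUn:64591403-64592430 CTRL had 6.30 ± 0.276 CPM (SD, n = 5) and PILO 4.31 ± 0.439 CPM (n = 4). In chrUn:67142859-67143510 CTRL had 1.59 ± 0.199 CPM (n = 5) and PILO 0.671 ± 0.186 CPM (n = 4), on 143 tags in all.

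PILO+KD versus CTRL combined status epilepticus and ketogenic diet. It called 64 members (1.21%, where 0.92% of all tested regions were called), 62 higher in PILO+KD and 2 lower. Over all tested regions 0.5% were called higher and 0.42% lower. Among called autosomal regions 52.5% were higher, against 96.9% of called members. At p below 0.05 there were 241 members, 219 of them higher, and the smallest adjusted p was 0.511 (edgeR). The median log2 fold change was 0.10 over members and 0.00 over autosomal regions, with 73.0% of members above 0. Chromosome X lay between them, with a median of 0.05 and 66.0% of its tested regions above 0. The median over members was 0.02 with the label prefix as a term, 0.03 without PILO+KD 4, 0.06 without CTRL 2, 0.15 without CTRL 5 or PILO+KD 2 and 0.17 without PILO+KD 3. PILO+KD 4 alone carries prefix FC104, so with the prefix term it did not inform the group difference. The groups did not overlap in 30 members (0.568%, against 0.727% of all tested regions), 26 of them higher in PILO+KD.

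This excess of higher values moved with the libraries in the fit. Among FC101 libraries alone, with 3 CTRL and 2 PILO+KD, the median log2 fold change of members was -0.06, and 28 members were called, 25 higher. Of the 62 members called higher in all animals, 53 were tested among FC101 libraries, and 8 of these passed there while 51 kept their sign. With the label prefix as a term 44 members were called, 29 of the 62 among them. Without PILO+KD 4 there were 42, and 26 of the 62 passed. PILO+KD 4 was farthest above CTRL in 27 of the 62 members and PILO+KD 1 in 23, while PILO+KD 2 was so in none. The prefix term and the omission of PILO+KD 4 both take that animal out of the group difference, so they are not separate checks. The part of the label prefix in this result was not tested.

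Members called higher in PILO+KD were thinly covered. Their density had a median of 2.46 CPM per kb against 5.43 for all tested members, and their length a median of 833 bp. When the tested members were divided by density into 5 classes of 1056, the lowest class (up to 2.57 CPM per kb) held 32 of the 62 and the highest held none. Autosomal regions called higher fell over their own density classes in the same order, from 261 in the lowest to 27 in the highest. Over all members the median log2 fold change was 0.22 in the lowest class and 0.09 in the highest. Autosomal regions divided in the same way had medians of -0.05 and 0.05. Called members lay in 34 of the 1-Mb intervals, and the most in a single interval was 8, between 45 and 46 Mb.

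That interval holds the member with the smallest p, chrUn:45194184-45195136 (952 bp). CTRL had 1.89, 1.68, 1.16, 2.28 and 1.64 CPM, PILO 5.33, 2.14, 3.39 and 2.90 CPM, and PILO+KD 5.61, 2.74, 2.82, 7.41 and 4.98 CPM. All PILO+KD animals lay above all CTRL animals, with PILO+KD 2 and PILO+KD 3 lowest and PILO+KD 4 highest. The log2 fold change was 1.43 ± 0.29 (SE; unadjusted edgeR p of 2.67e-05, adjusted p of 0.511). Among FC101 libraries it was 0.71 (unadjusted edgeR p of 0.097).

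In chrUn:5357919-5359670 (1751 bp) CTRL had 3.97, 4.14, 3.99, 4.68 and 2.40 CPM, PILO 11.7, 4.27, 8.63 and 4.92 CPM, and PILO+KD 9.21, 4.95, 5.87, 12.9 and 9.44 CPM. PILO+KD and CTRL did not overlap (log2 fold change 1.14 ± 0.26, unadjusted edgeR p of 0.000128, adjusted p of 0.614), and among FC101 libraries the value was 0.35 (p of 0.286). The order of animals was like that in the preceding member, with PILO 2 and PILO+KD 4 highest.

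For chrUn:65144242-65145508 (1266 bp) CTRL had 3.69 ± 0.533 CPM (SD, n = 5) and PILO+KD 7.40 ± 2.05 CPM (n = 5), without overlap (log2 fold change 1.00 ± 0.23, unadjusted edgeR p of 0.000165, adjusted p of 0.614). For chrUn:22173043-22173786 (743 bp, 136 tags in all) the means were 0.610 ± 0.272 CPM and 1.80 ± 0.267 CPM, again without overlap (log2 fold change 1.52 ± 0.36, unadjusted edgeR p of 0.000193, adjusted p of 0.622). Both had p above 0.01 among FC101 libraries.

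A different order was seen in chrUn:50445679-50447998 (2319 bp). CTRL had 10.8, 3.69, 7.21, 4.68 and 3.16 CPM, and PILO+KD had 20.4, 14.6, 10.7, 9.40 and 9.22 CPM. CTRL 1 overlapped with PILO+KD, and PILO+KD 4 was among the lowest of its group. The log2 fold change was 1.10 ± 0.26 (unadjusted edgeR p of 0.000175, adjusted p of 0.614) and 1.31 among FC101 libraries (p of 2.43e-05). No other of the 5 passed the cut-off there.

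Lower levels in PILO+KD were called in 2 members, chrUn:49013167-49014318 and chrUn:75135585-75136626. In chrUn:49013167-49014318 (1151 bp) CTRL had 21.0, 12.8, 14.6, 28.7 and 20.9 CPM, PILO 13.9, 14.9, 13.9 and 12.0 CPM, and PILO+KD 11.5, 11.3, 14.6, 10.9 and 13.3 CPM. CTRL 1, CTRL 4 and CTRL 5 stood above all other animals, while CTRL 2 and CTRL 3 lay within the range of PILO and PILO+KD. The log2 fold change of PILO+KD was -0.67 ± 0.17 (unadjusted edgeR p of 0.000591, adjusted p of 0.805). In chrUn:75135585-75136626 CTRL had 2.47 ± 0.677 CPM (SD, n = 5) and PILO+KD 1.24 ± 0.464 CPM (n = 5), without overlap (log2 fold change -0.98 ± 0.31, unadjusted edgeR p of 0.00313). The next 3 by p, chrUn:44373469-44373885, chrUn:48991998-48993107 and chrUn:58368707-58369962, had log2 fold changes of -0.45, -0.46 and -0.72 and p between 0.0131 and 0.0171 (edgeR), which did not pass.

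PILO+KD versus PILO compared diets after status epilepticus. It called 10 members (0.189%, where 0.351% of all tested regions were called), 6 higher in PILO+KD and 4 lower. Over all tested regions 0.151% were called higher and 0.201% lower. At p below 0.05 there were 67 members, 44 of them higher. The median log2 fold change was 0.05 over members and 0.00 over autosomal regions, and 63.9% of members were above 0. Chromosome X again lay between them, with a median of 0.02 and 56.6% of its tested regions above 0. Groups did not overlap in 24 members (0.455%, against 0.746% of all tested regions). Among FC101 libraries, with 3 PILO and 2 PILO+KD, 20 members were called, none of them higher, and the median log2 fold change of members was -0.14. The direction over members therefore differed between all animals and these libraries. Without PILO 2 the count was 24, and without PILO 5 or PILO+KD 4 it was 5. With 1 animal left out the median log2 fold change of members was between -0.02 (without PILO+KD 4) and 0.12 (without PILO+KD 3).

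The smallest p among higher members was that of chrUn:29937494-29938656 (1162 bp). CTRL had 1.09, 1.01, 1.67, 0.886 and 0.763 CPM, PILO 1.33, 1.48, 1.23 and 0.504 CPM, and PILO+KD 2.88, 1.90, 1.92, 4.42 and 2.12 CPM. All PILO+KD animals lay above all others, PILO+KD 4 farthest (log2 fold change against PILO 1.19 ± 0.36, unadjusted edgeR p of 0.00255). The adjoining chrUn:29935883-29937054 had a log2 fold change of 0.61 ± 0.34 (unadjusted edgeR p of 0.0855). In chrUn:21000543-21001248 PILO had 0.848 ± 0.521 CPM (SD, n = 4) and PILO+KD 2.05 ± 0.612 CPM (n = 5), with 1.70 ± 0.180 CPM in CTRL (n = 5). In chrUn:2656763-2657571 PILO had 0.959 ± 0.486 CPM and PILO+KD 2.32 ± 0.917 CPM. These groups overlapped in both members, and all 3 rested on 173 to 201 tags.

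Among the lower members were 3 already described as higher in PILO than in CTRL, and the 2 results rest on the same PILO animals. They were the adjoining chrUn:6567028-6568398 (log2 fold change -0.48 ± 0.16, unadjusted edgeR p of 0.0052) and chrUn:6563574-6566060 (-0.93 ± 0.31, p of 0.00573), and chrUn:67200496-67204012 (-0.44 ± 0.16, p of 0.00838). In all 3 PILO+KD 1 reached the range of the PILO animals, and the groups overlapped. Against CTRL, the PILO+KD log2 fold changes of these members were 0.11 ± 0.15, 0.13 ± 0.30 and 0.23 ± 0.15.

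**Figure D5:**
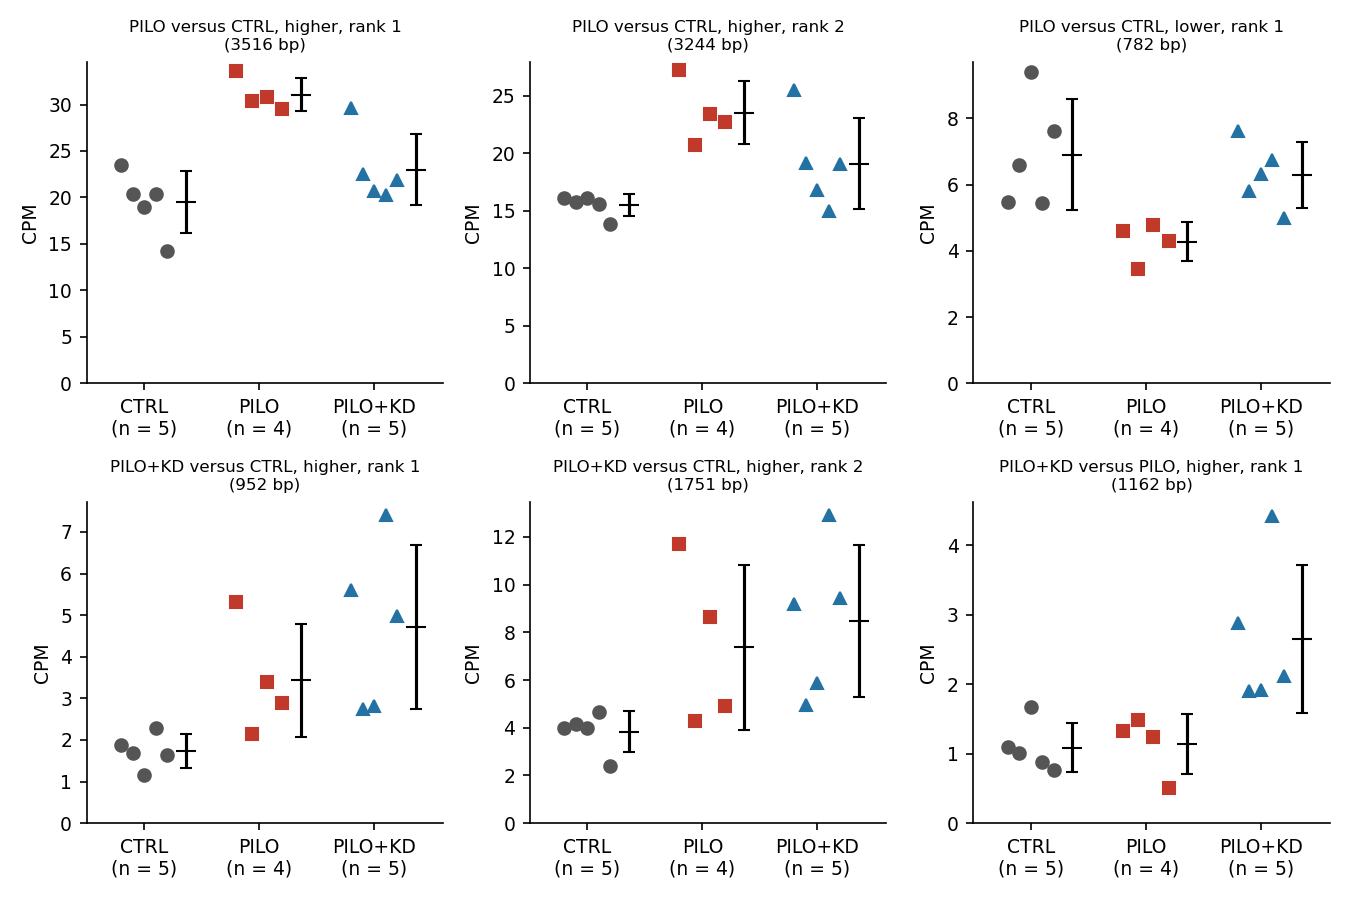
CPM by animal in 6 chrUn regions with p below 0.01, named by comparison, direction and rank by p, with mean ± SD beside each group. PILO lies apart from CTRL in the upper panels, and PILO+KD lies above CTRL in the first 2 lower panels with PILO+KD 4 highest at 7.41 and 12.9 CPM.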

How the data were processed

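Methyl-Seq was performed in 14 animals, each with 1 library. Per the labels and the methods of the study, DNA was fragmented to 200 to 300 bp, methylated fragments were captured, and 36 cycles were sequenced. The deposited values are raw tag counts per region and animal. The authors aligned reads to RN4 with BWA, called regions between pairs of samples with MACS 1.4.0, merged them with bedtools, removed duplicate reads and counted tags with a script of their own. The paper reports that most reads had an unambiguous position and holds that the rest probably came from repeated DNA. Whether reads with several matching positions were counted is not given in the sources used here, and this bears directly on repeated sequence.

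For the comparisons, TMM factors and edgeR (4.0.16, under R 4.3.3) were used, with the quasi-likelihood F test in 1 fit of all 14 animals and no covariate. Regions under 129 tags in all were removed, as the authors filtered at the 50th centile. CPM divide by the tags in tested regions times the TMM factor. A prior count of 2 entered log2 CPM. The cut-off was p below 0.01, and p values were also adjusted after Benjamini and Hochberg over 155092 regions. The standard error of a log2 fold change was derived from its F value (the change over the root of F). Length is end minus start, and coordinates are those of the table. Shares and ratios were tested with exact permutation tests in SciPy 1.17.1. Measures of spread (SD, SE) come from the animals. Tags per library (6972700 to 12391666) limit thinly covered regions. In the densest members the limit set by duplicate removal also bears on the counts, and its part was not tested.

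Replicate numbers recur between groups. Animals with the same number did not deviate together throughout (r over tested regions between -0.29 and 0.28), so the numbers were not taken as pairs. PILO+KD animal 211 has no number. Groups and numbers came from the labels. Alternatives were another scaling, filter, test, covariate, threshold or set of animals, including DESeq2 1.42.0 and limma-voom (limma 3.58.1). The test was checked on simulated counts.

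The members and the regions and measures described were chosen with earlier results of these data known. Named regions are the 5 higher and 5 lower members with the smallest p in each comparison against CTRL, 3 and 3 in PILO+KD versus PILO, the 5 with the most tags per kb, the 5 with the most tags, the 3 longest, and the 5 tested members with the largest ratio among CTRL animals, with members within 1 kb. Sequence and annotation of RN4 were not analysed here.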

Additional observations from a re-analysis of the deposited data

Results flagged for a closer look

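In groups of 4 or 5 animals, an animal was picked out when its gap to the nearest other animal was a large part of the range of its group (Dixon's ratio). This picked out 7 groups (5.56% of those examined), and chance alone picks out about 1 in 20. The spread of chrUn relative to autosomes was 0.816 in PILO 3 and between 0.920 and 0.928 in the other PILO animals (ratio 0.929). PILO+KD 1 had 244 CPM in the dense chrUn:23408867-23410094, against 162 to 186 CPM in its group (0.716), and 29.6 CPM in chrUn:67200496-67204012, against 20.2 to 22.5 CPM (0.755). PILO+KD 4 had 6.30 CPM in chrUn:59721314-59722050, against 0.432 to 2.00 CPM (0.733), and 3.21 CPM in chrUn:59755477-59755978, against 0.144 to 0.848 CPM (0.770). CTRL 5 had 13.8 CPM in chrUn:65758306-65761550, against 15.6 to 16.1 CPM (0.763), and 6.65 CPM in chrUn:44373469-44373885, against 5.57 to 5.86 CPM (0.728).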

How the results depend on the processing

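The number of called members depended on the libraries, and in PILO+KD versus PILO their direction did too. With 1 animal left out, between 77.8% and 97.2% of called members were higher in PILO versus CTRL. In PILO+KD versus CTRL it was between 90.5% and 98.2%. Among FC101 libraries 67 of 74 and 25 of 28 called members were higher in these 2 comparisons. In the order PILO versus CTRL, PILO+KD versus CTRL and PILO+KD versus PILO, the 38, 64 and 10 called members became 74, 28 and 20 among FC101 libraries, 68, 44 and 9 with the label prefix as a term, 65, 147 and 23 without a filter, and 169, 241 and 67 at p below 0.05. At an adjusted p below 0.05 they were 0, 0 and 0. Requiring 10 tags or more per animal gave 37, 36 and 4. A fit with a replicate block (4, 4 and 3 shared numbers, which were not shown to pair animals) gave 71, 39 and 10, of which 66, 38 and 1 were higher, and 3, 1 and 0 had an adjusted p below 0.05. Such members numbered 1, 1 and 0 in FC101 and 0, 1 and 0 with the prefix term, and 1 in PILO+KD versus CTRL without CTRL 1 (adjusted p of 0.0192). In PILO+KD versus PILO the share of higher calls was 60.0% in the main result, 11.1% with the label prefix as a term, 10.0% with the block, 25% with 10 tags per animal, 42.9% with limma-voom, 82.6% without a filter, 87.5% with the 2 groups alone, 71.4% with DESeq2 and 0% in FC101. Leaving out 1 animal gave 18 (without PILO 2) to 73 (without PILO 3), 42 (without PILO+KD 4) to 95 (without CTRL 1), and 5 (without PILO 5 or PILO+KD 4) to 24 (without PILO 2). PILO versus CTRL also gave 60 without CTRL 1, 23 without CTRL 2, 24 without CTRL 3 and 20 without CTRL 5. DESeq2 called 35, 65 and 7.

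Share differences were 0.459, 0.397 and -0.0616 percentage points. The second became -0.0831 among FC101 libraries. Without the 1% of members with the most tags they were 0.163, 0.257 and 0.0938. Leaving out 1 animal gave 0.283 to 0.716, 0.211 to 0.569 and -0.319 to 0.114, and within shared replicate numbers, as a block, they were 0.491, 0.376 and -0.229. The mean log2 density ratio stayed above 0, at 0.23 to 1.08, and at 0.43 to 0.48 with 1 animal left out. The log2 spread ratio of -0.04 passed the threshold at -0.16 without abundance classes, -0.0502 without a filter, -0.10 among FC101 libraries and -0.23 with own centring (chosen after seeing the data), and was -0.06 to -0.01 with 1 animal left out. These spread tests took the values of animals as independent, which they were not fully. The 26 named differences were picked by p in the main fit, and the alternatives reuse its animals. Kept signs are therefore no independent support. Of 692 values of these differences under alternatives, 582 kept their side of the cut-off, 106 lost it, 4 gained it and none changed sign. The causes of these changes were not tested.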

Other observations

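The shift of chrUn regions in an animal went with that of regions on chromosome X. Both are medians of tested regions minus the autosomal median. For chromosome X the shift was -0.17, -0.15, -0.00, 0.05 and 0.06 in CTRL, 0.08, -0.21, 0.09 and 0.04 in PILO, and 0.10, -0.23, -0.21, 0.35 and 0.06 in PILO+KD, with animal 211 last. Over the 14 animals Pearson's r was 0.93 (permutation p = 3e-05) and Spearman's rho 0.90 (permutation p = 6e-05). Adjusted over the 4 coefficients computed for 2 relations, both had p = 0.00012 (permutation). Without PILO+KD 4 and PILO+KD 2, the animals farthest from the median, r was 0.85. Both shifts are set against the same autosomal median, which enters both sides. The share of chrUn tags and the total tags of a library gave r = -0.44 (permutation p = 0.119) and rho = -0.35 (p = 0.22), adjusted 0.159 and 0.22, and r = -0.15 without PILO 3 and PILO 4.

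Members without any tag in an animal were fewer than on autosomes. Between 1.12% and 4.74% of members had no tag in a given animal, with PILO 4 and CTRL 4 highest, against 2.82% to 9.48% of autosomal regions. No tag in at least 1 animal was seen in 15.5% of members, 29.6% of autosomal regions and 12.9% of chromosome X regions. Members were also longer and more densely covered than autosomal regions, and these shares were not compared at like length or abundance.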
